A study of Arabidopsis thaliana with 6 samples.

Results

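GSTL3 and GSTU18 are glutathione S-transferase genes of Arabidopsis thaliana, and their transcript signals were read on 6 ATH1 arrays (oligonucleotide arrays with 1 probe set for most genes). Each gene has 1 probe set that names it and no other gene, so the members are 2 of the 13350 genes named in this way among 22746 non-control probe sets. GSTL3 (AT5G02790) lies on chromosome 5 and GSTU18 (AT1G10360) on chromosome 1. Both genes were picked with their values on these arrays known, so their signals and differences are described here without a test. A further 11 genes have a symbol that begins with GST and 1 probe set each, and they serve as the family background.

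The 3 groups had 2 arrays each. The first group was the gun1,gun5 double mutant grown on 5 µM norflurazon, the second was wild type Col-0 grown on 5 µM norflurazon, and the third was wild type Col-0 grown without it, called the control. All seedlings had 3 days of darkness and then 3 days of continuous white light at 23 °C, on Murashige and Skoog salts with 1.5% (w/v) sucrose, and whole seedlings with open cotyledons, hypocotyl and primary root but no emerged true leaves were used. Norflurazon inhibits carotenoid synthesis, and chloroplasts without carotenoids are destroyed by light. The gun (genomes uncoupled) mutations weaken the signal by which damaged plastids lower the transcription of nuclear genes. The alleles and the signals of GUN1 and GUN5 themselves were not analysed here, nor was a mutant group without norflurazon, so a mutant difference is not a test of the mutant's response to the herbicide. Nothing in the labels says that the arrays of a group came from separate plantings, and the spread between them may be technical.

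Glutathione S-transferases use the tripeptide glutathione, the main soluble thiol of plant cells. The tau class, to which GSTU18 belongs, is specific to plants and large, and many of its enzymes attach glutathione to reactive or foreign compounds, herbicides included. The lambda class, to which GSTL3 belongs, has a cysteine in place of the catalytic serine, and its enzymes transfer thiols or remove glutathione from conjugates. Genes of this superfamily are widely known for responding to chemical and oxidative stress.

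Both genes were dimmest in wild type seedlings on norflurazon, brightest in the control, and in between in the mutant on norflurazon. GSTL3 had signals of 333.4 and 275.3 on the mutant arrays, 227.2 and 254.9 on the wild type norflurazon arrays, and 519.1 and 593.2 on the control arrays (replicates 1 and 2 of each group; MAS5 signal on a linear scale). The control arrays stood well above the other 4, whereas the mutant and wild type norflurazon arrays lay close together without overlapping. GSTU18 had signals of 140.1 and 89.4 on the mutant arrays, 51.0 and 52.3 on the wild type norflurazon arrays, and 170.5 and 196.3 on the control arrays. Here too no groups overlapped, and the mutant arrays were the furthest apart from each other. An order of control above mutant above wild type on norflurazon, with no overlap between any groups, was found in 829 of the 13648 probe sets bright enough to be tested (6.07%).

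**Figure D1:**
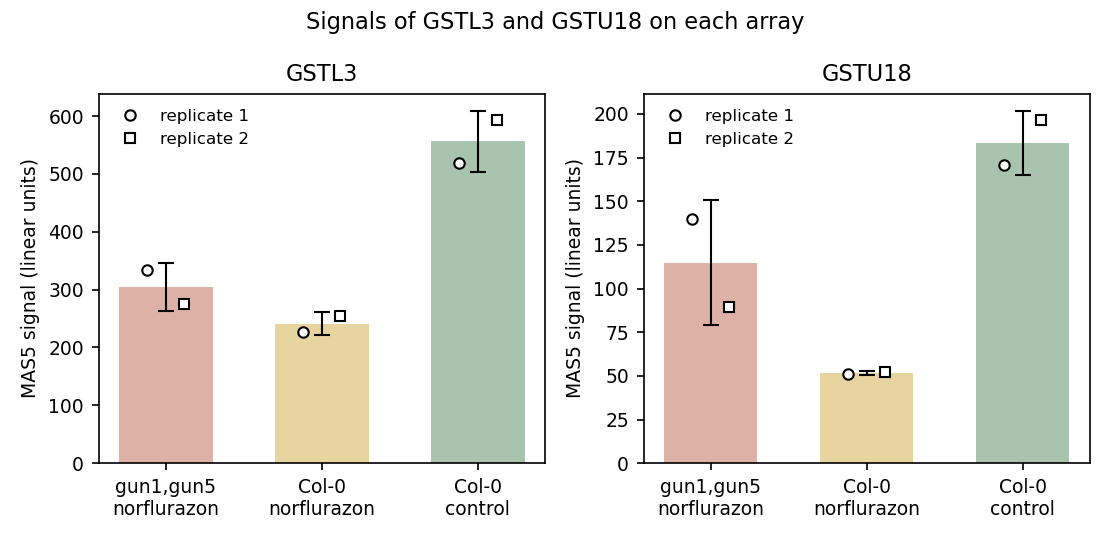
MAS5 signal (linear units) of GSTL3 and GSTU18 in the 3 groups. Bars are means of 2 arrays, error bars are SD, and symbols are the arrays; GSTU18 averaged 114.75 in the mutant on norflurazon, 51.65 in the wild type on norflurazon and 183.4 in the control.

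The first comparison asked how norflurazon altered these genes in the wild type. GSTL3 averaged 241.05 ± 19.6 on norflurazon and 556.15 ± 52.4 in the control (SD, n = 2), and GSTU18 averaged 51.65 ± 0.919 on norflurazon and 183.4 ± 18.2 in the control (SD, n = 2). GSTL3 on norflurazon was thus at 43.3% of the control mean and GSTU18 at 28.2%. As a difference of mean log2 signals, GSTL3 was at -1.21 ± 0.18 and GSTU18 at -1.82 ± 0.24 (SE from the limma model of all tested probe sets). For both genes the gap between the nearest arrays of the 2 groups, 264.2 units for GSTL3 and 118.2 units for GSTU18, was larger than the range within either group. Arrays of the same replicate number gave nearly the same differences: -1.19 and -1.22 for GSTL3, and -1.74 and -1.91 for GSTU18. The numbers are not known to mark pairs, however. With single arrays left out the differences ran from -1.30 to -1.11 for GSTL3 and from -1.93 to -1.72 for GSTU18. Non-overlapping lower signals were found in 28% of tested probe sets, and 9.85% were lower at an adjusted p under 0.05. A lower difference than that of GSTU18 was found in 300 of the 13648, and a lower one than that of GSTL3 in 683.

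The second comparison set the mutant against the wild type, both on norflurazon. GSTU18 was higher in the mutant, at 114.75 ± 35.9 against 51.65 ± 0.919 in the wild type (SD, n = 2), a ratio of mean signals of 2.22 and a log2 difference of 1.11 ± 0.24 (SE). Its nearest arrays were 37.1 units apart, which is less than the 50.7 units between the 2 mutant arrays. The same-numbered differences were 1.46 and 0.77. Without mutant replicate 1 the difference was 0.79, and without mutant replicate 2 it was 1.44. Higher signals with no overlap were found in 17.7% of tested probe sets, and 1.83% were higher at an adjusted p under 0.05.

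GSTL3 was close in the 2 genotypes on norflurazon. It averaged 304.35 ± 41.1 in the mutant, against 241.05 ± 19.6 in the wild type (SD, n = 2 each), a log2 difference of 0.33 ± 0.18 (SE). The gap between the nearest arrays was 20.4 units. It was smaller than the range within the mutant pair (58.1 units) and within the wild type pair (27.7 units). The nearest GSTL3 arrays of the 2 genotypes were thus closer together than the arrays within each pair. Such a gap does not measure whether the means differ, and no test is given. The GSTU18 gap of 37.1 units was below the range of its mutant pair (50.7), though above that of its wild type pair (1.3). Its log2 difference was 1.11 ± 0.24 (SE). For GSTL3 the same-numbered differences were 0.55 and 0.11, and the value was 0.19 without mutant replicate 1. A larger difference than that of GSTL3 was found in 2100 tested probe sets, against 227 for GSTU18.

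The third comparison, of the mutant on norflurazon with the wild type control, uses arrays of both other comparisons and adds no independent sample. GSTL3 in the mutant was at 54.7% of the control mean, with a log2 difference of -0.87 ± 0.18 (SE). Its nearest arrays were 185.7 units apart, more than the range of either group. GSTU18 in the mutant was at 62.6% of the control mean, with a log2 difference of -0.71 ± 0.24 (SE), and its gap of 30.4 units was smaller than the 50.7 units between the mutant arrays. That difference was -1.03 without mutant replicate 1 and -0.38 without mutant replicate 2. Lower signals with no overlap were found in 33.6% of tested probe sets.

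On the log2 scale the largest gap between replicates was in the mutant for both genes, with replicate 1 the brighter array; in signal units the control pair of GSTL3 was further apart, by 74.1 units against 58.1 in the mutant. In log2 units mutant replicate 2 was at -0.65 relative to replicate 1 for GSTU18 and at -0.28 for GSTL3, and 8.82% and 41.5% of tested probe sets had a larger absolute gap in that pair. The pair of wild type norflurazon arrays differed by 0.04 for GSTU18 and 0.17 for GSTL3, and the control pair by 0.20 and 0.19. The arrays also differed in a measure of RNA quality, given by how far the 3′ actin control probe set outshines the 5′ one. This ratio was 2.00 and 3.21 on the mutant arrays, 1.65 and 3.63 on the wild type norflurazon arrays, and 2.46 and 2.78 on the control arrays. The same ratio for GAPDH lay between 0.952 and 1.21 over the 6 arrays. Ribosomal RNA (25S control probe set) read 2511.1 units on wild type norflurazon replicate 1, against 8.2 to 115.6 units on the other arrays. The part of these in the values above was not tested.

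Markers of green cotyledon tissue moved in the same order. Of 8 listed markers 7 were named on the array, none was at 0, and their summed signal was 8661.6 to 10039.8 units on the mutant arrays, 3510.8 to 4310.9 on the wild type norflurazon arrays, and 17916.7 to 20531.6 on the control arrays. All 7 fell in the wild type on norflurazon, and all 7 were higher in the mutant than in the wild type on norflurazon (adjusted p under 0.05 by limma). Of all tested probe sets 9.85% were lower in the first of these comparisons and 1.83% higher in the second. The marker list was chosen with earlier results of these data known, so these counts are a description. In the mutant against the control 6 of the 7 fell and RCA, at -0.48, did not pass (limma adjusted p = 0.0621), where 10.3% of all tested probe sets fell. As a share of the control mean, the markers ran from 25.1% to 71.8% in the mutant, with a median of 42.0%, and from 5.80% to 41.8% in the wild type on norflurazon, with a median of 14.6%. The mean of GSTL3, at 43.3% in the wild type on norflurazon, was above that range of means. RCA, the activase of Rubisco, was nearest to it at 41.8%. The RCA arrays, at 46.9% and 36.7%, lay on either side of the GSTL3 arrays, at 40.9% and 45.8%. GSTU18, at 28.2%, lay beside the antenna protein gene LHCB4.1 at 27.0%. Whole seedlings were used, so fewer green cells and less RNA per cell cannot be told apart, and the part of green tissue in the GST values was not tested. Of 10 listed root markers only EXPA7, an expansin of root hair cells, was named, with signals of 51.4 and 49.5 on the mutant arrays, 48.9 and 18.1 in the wild type on norflurazon and 46.7 and 56.1 in the control. CLV3, a marker of the shoot apex, was at 4.1 units or less on every array, and the 6 listed seed storage genes were not analysed here.

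**Figure D2:**
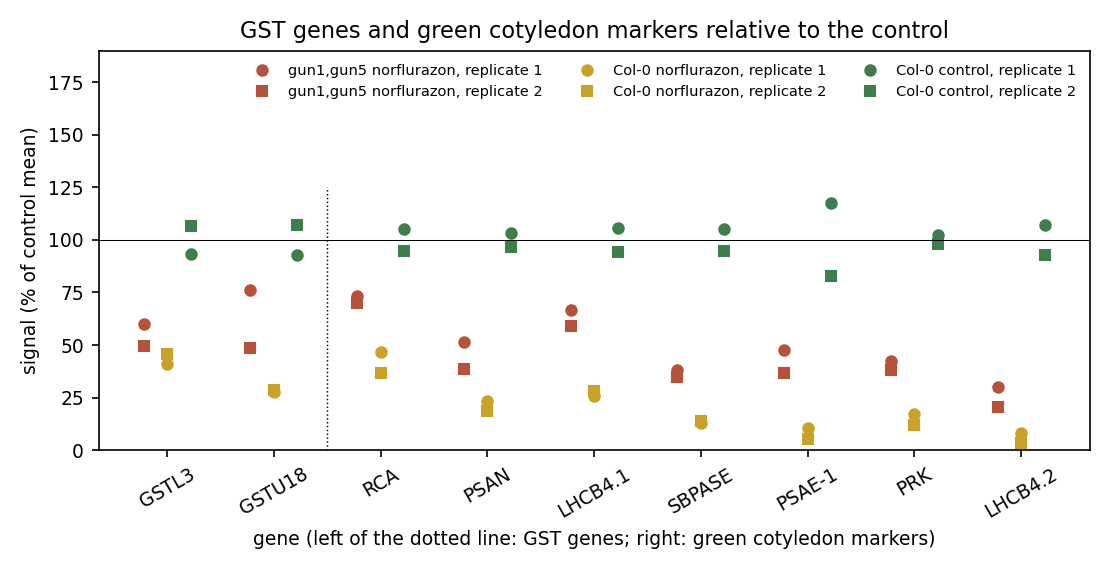
Signal on each array as a percent of the mean of the 2 control arrays, for GSTL3 and GSTU18 (left of the dotted line) and 7 green cotyledon markers (right). Circles are replicate 1 and squares replicate 2; the wild type norflurazon arrays lie at 40.9% and 45.8% for GSTL3 and at 27.8% and 28.5% for GSTU18.

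The genes whose profiles were most like those of GSTL3 and GSTU18 were found among tested probe sets that name 1 locus. Each profile was centred on its own mean of the 6 log2 signals, and likeness was the root mean square difference over the 6 arrays, which fall into 3 groups of 2. For GSTL3 the closest was BAT1, named for an acyltransferase related to brassinosteroids, at 0.066. BAT1 had signals of 55.4 and 42.8 on the mutant arrays, 40.9 and 43.4 in the wild type on norflurazon, and 88.0 and 95.7 in the control. The next were AT1G32160 at 0.088, AT4G33500 at 0.096, AT2G29670 at 0.107 and AT5G03880 at 0.109. As for GSTL3, all 5 had mutant and wild type norflurazon means close together and well below the control, with log2 differences between the genotypes of 0.20 to 0.44. They were chosen for their likeness to GSTL3, so this pattern follows from the choice.

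The profiles nearest to GSTU18 were less close than those nearest to GSTL3. AT5G38510 was first at 0.151, with signals of 106.5 and 88.5 on the mutant arrays, 52.9 and 43.2 in the wild type on norflurazon, and 156.4 and 179.6 in the control. It was followed by AT5G13410 at 0.156, AT4G02530 at 0.163, AT3G50270 at 0.172 and AT5G07020 at 0.173. In all 5 the mutant arrays lay above the wild type norflurazon arrays and below the control arrays. This order follows from their choice by likeness to GSTU18, and 6.07% of all tested probe sets had it. Between GSTL3 and GSTU18 themselves the root mean square difference was 0.356. Among the tested GST genes this was the smallest value for each of them. Both were picked with their values on these arrays known, so their likeness to each other is only a description. The next was GSTU27 for GSTL3 at 0.405 and GSTU16 for GSTU18 at 0.659, and GSTU20 was the furthest from both.

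**Figure D3:**
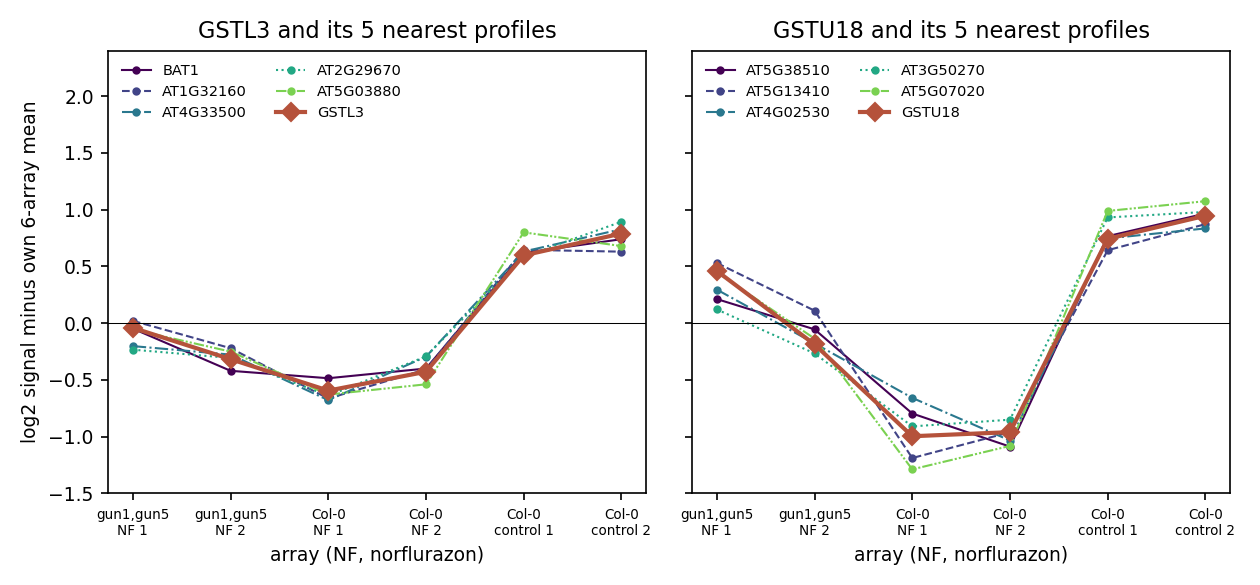
Log2 signal on each array minus the gene's own 6-array mean, for GSTL3 (left, thick line), GSTU18 (right, thick line) and the 5 genes with the most similar profile (thin lines). NF is norflurazon; the GSTL3 set lies within a root mean square difference of 0.109 and the GSTU18 set within 0.173.

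No other tested gene with a symbol that begins with GST passed the test for norflurazon in the wild type. Family members with another symbol or with an unnamed probe set are outside this count, so it does not describe the whole family. Of the 11 other GST genes 7 passed the filter on dim probe sets, all of the tau class, and 0 of the 7 passed the limma test in the wild type on norflurazon against the control, where 18.9% of all tested probe sets passed. None of the 7 had an unadjusted p under 0.05, against 34.1% of all tested probe sets. Their log2 differences ran from -0.53 (GSTU28) to 0.47 (GSTU25), with a median of -0.14, against 0.06 for all tested probe sets. GSTU16 had signals of 178.6 and 228.7 on norflurazon, against 267.6 and 255.5 in the control. GSTU25 had 57.4 and 73.3 on norflurazon and 49.5 and 44.1 in the control. For neither did the difference pass (adjusted p = 0.219 for GSTU16 and 0.214 for GSTU25 by limma), though the arrays of the 2 groups did not overlap. By sign 4 of the 7 were lower on norflurazon, among them GSTU22 at -0.14, whose arrays overlapped the control. GSTU27 and GSTU28, at -0.29 and -0.53, lay below the control without overlap, as did GSTU16. These 3 of the 7 were thus below without overlap, as GSTL3 and GSTU18 were. Such lower signals were found in 28% of all tested probe sets, and non-overlapping higher ones, as in GSTU25, in 34.2%. GSTL3 and GSTU18, at -1.21 and -1.82, lay outside the range of these 7, which is a description, since both were chosen with their values known.

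Between the genotypes on norflurazon, 0 of the 7 passed and 2 had an unadjusted p under 0.05, where 2.95% of all tested probe sets passed and 16.2% had an unadjusted p under 0.05. Their median was -0.19, against -0.04 for all tested probe sets. GSTU20, a tau enzyme known to bind the jasmonate-conjugating protein FIN219 (JAR1), had signals of 45.8 and 25.3 on the mutant arrays, 145.2 and 79.5 in the wild type on norflurazon, and 83.8 and 89.0 in the control. The mutant arrays were the lowest of the 6. Of tested probe sets 23.1% had mutant arrays below both wild type norflurazon arrays, and 33.6% had them below both control arrays. The share with mutant arrays below all the others was not counted. GSTU20 in the mutant differed from the wild type on norflurazon by a log2 value of -1.66 ± 0.36 (SE; limma adjusted p = 0.0545). It was -2.09 without wild type norflurazon replicate 2 (limma adjusted p = 0.0235). It was -1.22 without wild type norflurazon replicate 1 (limma adjusted p = 0.116), -2.08 without mutant replicate 1 (limma adjusted p = 0.0630) and -1.23 without mutant replicate 2 (limma adjusted p = 0.252). In these fits the 1 array left in a group is assumed to vary like the other groups. With only the 4 arrays compared the limma adjusted p was 0.144. Its sign is the opposite of that of GSTU18 at 1.11. GSTU16 had 267.9 and 314.8 in the mutant, against 178.6 and 228.7 in the wild type on norflurazon, a log2 difference of 0.52 ± 0.19 (SE; limma adjusted p = 0.233).

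Against the control, 1 of the 7, GSTU20, fell in the mutant on norflurazon, where 10.3% of tested probe sets fell. Its log2 difference was -1.34 ± 0.36 (SE; limma adjusted p = 0.0370). It did not pass without mutant replicate 2, at -0.91 (adjusted p = 0.192), without control replicate 1, at -1.39 (adjusted p = 0.167), without control replicate 2, at -1.30 (adjusted p = 0.185), or with no filter on dim probe sets (adjusted p = 0.0692). GSTU22, GSTU27 and GSTU28 had non-overlapping lower signals in the mutant, with log2 differences of -0.33, -0.45 and -0.75, and did not pass; lower signals without overlap were found in 33.6% of all tested probe sets. GSTU16 had mutant arrays above the control arrays, at 0.15, as 34.6% of all tested probe sets did, and did not pass either. GSTF4, GSTU15, GSTU21 and GSTU23 were too dim to be tested, with signals from 0.7 to 29.6 units. ATGSTF13, whose symbol does not begin with GST, was also dim, at 12.3 to 21.8 units. The closest relatives of the members by name, GSTL1, GSTL2 and ERD9 (GSTU17), were not analysed here.

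**Figure D4:**
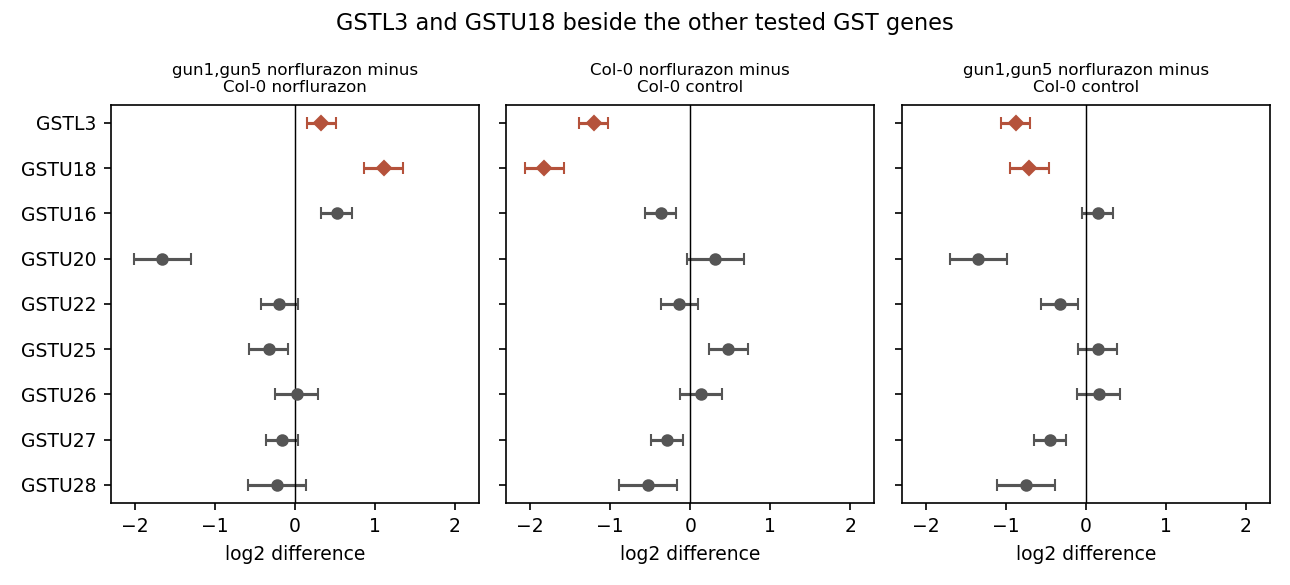
Log2 difference of mean signals for GSTL3 and GSTU18 (diamonds) and the 7 other tested GST genes (circles) in the 3 comparisons; error bars are SE of the limma model. GSTL3 and GSTU18 lie at -1.21 and -1.82 for norflurazon against control in the wild type, and the other 7 between -0.53 and 0.47.

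Genes that make, recycle or use glutathione were taken from 9 lists of 86 loci written by hand, of which 19 were named and 18 tested. In the wild type on norflurazon 2 of the 18 rose and 1 fell, where 9.06% of tested probe sets rose and 9.85% fell, and the median of the 18 was 0.14. The 3 calls were 5 without wild type norflurazon replicate 1, and 0 without control replicate 1 or without control replicate 2. In sulfate assimilation, which supplies the sulfur of glutathione, APS4 (an ATP sulfurylase) rose, with signals of 447.0 and 403.6 on norflurazon and 212.7 and 199.4 in the control. Its log2 change was 1.04 ± 0.17 (SE; limma adjusted p = 0.00606). APS4 did not pass without control replicate 1 (limma adjusted p = 0.0731) or without control replicate 2 (limma adjusted p = 0.0815). The other 2 genes of this list did not pass, APS3 at -0.23 and the sulfite reductase SIR at 0.03.

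The glutaredoxin GRXC1, one of the small enzymes that reduce disulfides with glutathione, rose by 0.74 ± 0.19 (SE; limma adjusted p = 0.0289) as 1 of 5 in its list. AT1G67280, placed in the list of glyoxalases, fell by 0.64 (limma adjusted p = 0.0289) as 1 of 6. Neither passed without control replicate 1 (adjusted p = 0.123 for GRXC1 and 0.204 for AT1G67280), without control replicate 2 (0.247 and 0.205), or without wild type norflurazon replicate 2 (0.0512 and 0.0506). Of the 3 genes for glutathione reduction and ascorbate recycling none passed, and 2, GR1 and ATMDAR2, had an unadjusted p under 0.05, as 34.1% of all tested probe sets did. GR1, the cytosolic glutathione reductase, had 664.6 and 987.4 on norflurazon and 529.2 and 444.1 in the control, a log2 difference of 0.74 (limma adjusted p = 0.0536). ATMDAR2, a monodehydroascorbate reductase, had 350.9 and 437.2 on norflurazon and 254.3 and 260.6 in the control, a log2 difference of 0.61 (limma adjusted p = 0.0753). GR, the organelle glutathione reductase, was at -0.39 (limma adjusted p = 0.180). AT1G44790, the 1 tested locus of the glutathione turnover list, was at -0.61 (limma adjusted p = 0.0906).

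Between mutant and wild type on norflurazon 0 of the 18 passed and 3 had an unadjusted p under 0.05, against 2.95% and 16.2% of all tested probe sets. The median of the 18 was -0.04, against -0.04 for all tested probe sets. The lowest p of their lists belonged to SIR, GRXC1, AT1G67280, GR1 and AT1G44790. SIR had 376.4 and 436.5 in the mutant, against 321.5 and 273.0 in the wild type, a log2 difference of 0.45 (limma adjusted p = 0.256). GRXC1 was at -0.41 (adjusted p = 0.328), AT1G67280 at 0.39 (adjusted p = 0.284), GR1 at 0.46 (adjusted p = 0.361) and AT1G44790 at 0.28 (adjusted p = 0.627), all by limma.

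Against the control, 2 of the 18 rose in the mutant on norflurazon and 0 fell, where 8.55% of tested probe sets rose, and 6 of the 18 had an unadjusted p under 0.05, against 34.4% of all tested probe sets. The 2 calls were 5 without either of the wild type norflurazon arrays, which are not compared here but inform the spread. GR1 had signals of 1008.4 and 1238.9 in the mutant and 529.2 and 444.1 in the control, a log2 change of 1.21 ± 0.22 (SE; limma adjusted p = 0.0100). APS4 rose by 0.85 ± 0.17 (SE; limma adjusted p = 0.0146). Without control replicate 1 or 2 neither passed (adjusted p = 0.0678 and 0.103 for GR1, 0.118 and 0.144 for APS4), nor did GR1 without mutant replicate 2 (0.0738) or APS4 without mutant replicate 1 (0.0803). In the other lists AT2G20270 of the glutaredoxins was at -0.62 (limma adjusted p = 0.0698), AT1G67280 at -0.25 (limma adjusted p = 0.303) and AT1G44790 at -0.33 (limma adjusted p = 0.322). In GR1 and APS4 norflurazon arrays of both genotypes lay above the control arrays. Of all tested probe sets, 34.2% had the wild type norflurazon arrays above the control arrays and 34.6% the mutant arrays. In GSTL3 and GSTU18, picked with their values known, the norflurazon arrays of both genotypes lay below. The wild type arrays did so in 28% of tested probe sets and the mutant arrays in 33.6%. The share with both genotypes on 1 side was not counted. The genes for glutathione synthesis, glutathione peroxidases, ABCC transporters of glutathione conjugates and the listed regulators of detoxification genes were not analysed here.

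**Figure D5:**
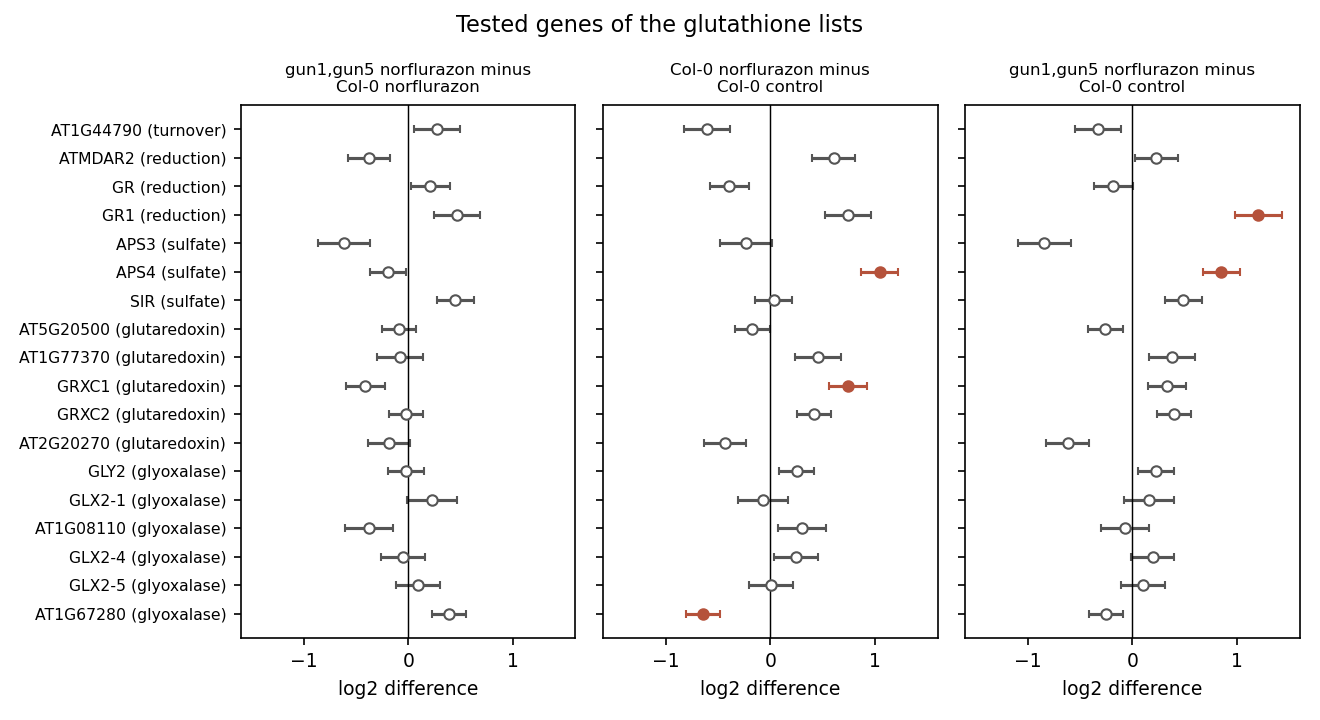
Log2 difference of mean signals of the 18 tested genes of the glutathione lists in the 3 comparisons; error bars are SE of the limma model and filled points passed at an adjusted p under 0.05. APS4 is filled at 1.04 and GRXC1 at 0.74 for norflurazon against control in the wild type, and no point is filled for the mutant against the wild type on norflurazon.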

How the data were processed

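The deposited values were MAS5 array intensity values on a linear scale, made by the authors, 1 array per sample, per the submitters' processing notes. The sources used here give no MAS5 version, and no detection calls were used. The number of arrays limits the precision. Signals were taken as log2(signal + 0.05), the added value being 0.5 times the smallest positive signal, 0.1. Of 22810 probe sets 64 controls were left out, and 13648 with a mean at or above the 40th percentile (a signal of 27.6) were tested. The 6 arrays entered a model of group means in limma 3.58.1 under R 4.3.3 (lmFit, eBayes with an intensity trend, 3 residual degrees of freedom), with two-sided p-values adjusted by the Benjamini-Hochberg method over all tested probe sets at a threshold of 0.05. The fit was tested on simulated data.

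Names came from the platform annotation, updated through the RefSeq gene table of TAIR10.1; 13513 named 1 gene, 503 several, and 8794 are unnamed here. No genome build is named for the files, so no coordinates are given. The members and gene lists were chosen with earlier results of these data known. The genes named are the members, their closest relatives by name, up to 10 other GST genes past the threshold per comparison, or the 2 of lowest p where none passed, 1 or 2 genes of each list by change or p, and the 5 profiles nearest to each member. Alternatives were a pseudocount of 16, 2 other scalings, 2 other filters, no trend, 4 arrays per fit, a replicate block and leaving out each array.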

Additional observations from a re-analysis of the deposited data

How the results depend on the processing

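For GSTL3 and GSTU18, 3 of the 10 alternatives in each comparison give the same value by construction (the replicate block and leaving out an array of the group not compared), and leaving out an array cannot turn the sign where groups do not overlap. Both kept the sign of their differences with the other pseudocount and with both other scalings. With arrays left out, GSTU18 ran from 0.79 to 1.44 for the mutant against the wild type on norflurazon and from -1.03 to -0.38 for the mutant against the control, and GSTL3 from 0.19 to 0.47 and from -1.01 to -0.73. For norflurazon against control in the wild type they ran from -1.93 to -1.72 and from -1.30 to -1.11, and with a pseudocount of 16 GSTU18 was at -1.56. Dividing each array by its median moved the median of all tested probe sets from 0.01 to 0.12 for the mutant against the control, and GSTU18 there was at -0.60.

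Counts of calls rested on single arrays. Leaving out each array in turn gave 603 to 3110 probe sets called in the wild type comparison, lowest without control replicate 1, 81 to 775 between the genotypes, lowest without mutant replicate 2, and 388 to 4000 for the mutant against the control, lowest without control replicate 1. The glutathione genes called ran from 0 to 5 in the first and from 0 to 5 in the third, and the other GST genes from 0 to 1 in the second and in the third. Fitting only the 4 arrays compared gave 109 probe sets between the genotypes, and 3968 probe sets and 5 glutathione genes for the mutant against the control. Without the filter 235 probe sets were called between the genotypes and 0 other GST genes for the mutant against the control. These causes were not tested.

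The labels give all groups the same replicate numbers. Same-numbered arrays deviated from their group means with a correlation of 0.451 between the mutant and wild type norflurazon groups. Between the control and these groups in turn it was 0.0799 and 0.0713. The main fit did not take the numbers as pairs, so a shift shared by same-numbered norflurazon arrays stays in its spread. Between the genotypes 591 probe sets were called with a replicate block, against 402 in the main fit. With a replicate block the glutathione genes called were 5 for norflurazon against control in the wild type, and 1 other GST gene, GSTU20, was called between the genotypes (limma adjusted p = 0.0178). With no detection calls, the dim GST genes have no known detection limit.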

Other observations

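GSTU15, too dim to be tested, had signals of 6.7 and 11.2 in the mutant on norflurazon, 1.4 and 0.8 in the wild type on norflurazon, and 6.6 and 2.3 in the control. GSTU21, also too dim, had 0.7 and 1.8 on the mutant arrays, 4.3 and 8.3 in the wild type on norflurazon, and 0.9 and 7.0 in the control. Whether such signals exceed the background of the arrays is not known here.

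Among the 5 protein-coding loci on each side of GSTL3 and of GSTU18, 9 of 20 were named and 6 tested; these loci were chosen by position after the data had been seen, and no test is given. The closest named neighbour of GSTU18, AT1G10350, had signals of 59.3 and 52.7 in the mutant on norflurazon, 70.9 and 64.1 in the wild type on norflurazon, and 66.2 and 65.9 in the control, a log2 difference of 0.03 for norflurazon against control in the wild type, where GSTU18 was at -1.82. AT1G10310 and AT1G10380, also near GSTU18, were at -0.50 and -0.56 in that comparison, without overlap, as 28% of all tested probe sets were on the lower side. AT5G02830, near GSTL3, had 126.2 and 100.7 on the mutant arrays, 61.1 and 49.1 in the wild type on norflurazon, and 80.9 and 93.8 in the control. Its log2 difference for norflurazon against control in the wild type was -0.67, without overlap and of the same sign as that of GSTL3. Its mutant arrays were above those of both other groups, unlike those of GSTL3. An order of mutant above control above wild type on norflurazon, without overlap, was found in 142 of the 13648 tested probe sets (1.04%).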
